A study of Homo sapiens with 15 samples.

Results

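The loci of 10 claudin genes (CLDN1, CLDN2, CLDN3, CLDN4, CLDN7, CLDN8, CLDN10, CLDN11, CLDN14 and CLDN16) were examined in ATAC-seq peak lists of a human kidney epithelial line with and without SETD2. The genes were a given list, named with earlier results of these data known, out of 20033 protein-coding genes of the annotation. A locus was the GENCODE v44 gene body with 10 kb on each side (hg38). Claudins are membrane proteins of the tight junction, where they seal the space between neighbouring epithelial cells or form selective pores through it. Which claudins a tubule segment makes sets which ions and how much water pass between its cells. CLDN2 and CLDN10 are known from the proximal tubule, CLDN16 and CLDN14 from the thick ascending limb, and CLDN3, CLDN4, CLDN7 and CLDN8 from the distal nephron and collecting duct. CLDN1 is best known as a barrier protein of skin and other epithelia, and CLDN11 as the claudin of myelin and Sertoli cells.

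ATAC-seq marks accessible chromatin by the insertion of Tn5 transposase, and a peak is an interval in which insertions exceed the background of the same library. The cells were RPTEC, renal proximal tubule epithelial cells immortalized with hTERT and kept under G418, a condition shared by all groups. SETD2, a methyltransferase that places the third methyl group on lysine 36 of histone H3, was knocked out with a CRISPR guide, and the clones KO1 and KO2 each grew from a single cell. Rescue1 and Rescue2 were single clones of knockout cells that received full-length FLAG-tagged SETD2 by lentivirus under blasticidin selection, and WT cells carried neither. Each of these 5 lines had 3 libraries, so KO and rescue were groups of 6 libraries from 2 clones each and WT was 1 line. The labels do not say which KO clone each rescue line came from, so rescue was compared with both KO clones together. Nothing in the labels says that the 3 libraries of a line came from separate cultures, so p-values describe the spread between these libraries, which may be technical.

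The lists held 196969 to 212373 peaks in WT, 204028 to 254650 in KO and 208067 to 265193 in rescue libraries, covering 49.4 to 56.2, 52.4 to 61.5 and 53.1 to 65.2 Mb. The lists hold no read counts and read depth was not used here, and a locus without a peak is one below the calling threshold. A smaller share of open cells and weaker opening in every cell cannot be told apart in such bulk libraries. Among proximal tubule markers, PAX8 had a peak at a start in all 15 libraries and LRP2 in 14, whereas HNF4A, CUBN, AQP1, SLC34A1 and SLC22A6 had none in any library. EPCAM, KRT8 and KRT18 had one in all 15, and CDH1, the epithelial cadherin, in 3 WT libraries and in 1 of the 12 others. The mesenchymal markers COL1A1 and PDGFRB had one in all 15, PTPRC, CD3E and PECAM1 in none, and the endothelial CDH5 in 5 rescue libraries only. The part of these differences in the claudin values was not tested.

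Peaks of all libraries that touched were merged into regions, and those with a peak in at least 2 libraries were kept. The claudin loci held 120 of the 295008 regions, with 8 counted in both the CLDN1 and the CLDN16 window because their annotated gene bodies adjoin on opposite strands. The MANE Select start of CLDN16 (chromosome 3, 190388163) lies apart from that of CLDN1 (190322446). Of the 120, 79 lay in introns, 20 within 1 kb of a protein-coding start, 4 in other exons and 17 between genes. Intron here means inside a protein-coding gene body and outside exons of coding transcripts. It can thus take in stretches before every coding start, as at CLDN4 and CLDN16. CLDN10 had the most regions (31), followed by CLDN16 (22), CLDN14 (20), CLDN1 (13), CLDN4 (13), CLDN2 (12), CLDN11 (9), CLDN7 (6) and CLDN3 (2). CLDN8 had none, and the nearest region lay 275853 bp from its start. A peak in all 15 libraries was found at 45 of the 120 regions (37.5%), against 35.6% of all regions.

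In the comparisons of KO with WT and of rescue with KO, 5 claudin regions had a peak in every library of one group and in none of the other, and each lay in a different locus. At CLDN14, every KO library but no WT library had a peak in a region. At CLDN2, CLDN4 and CLDN16, every WT library but no KO library had one. At CLDN11, every KO library but no rescue library had one. The sequences of the 4 that lie in introns are printed here in hg38, plus strand, because they are where a claudin intron gained or lost a peak call throughout a group. Each line gives 200 bases centred on the median summit, which runs past the region's edge at CLDN2 and CLDN16, and capitals mark a match to one of the motifs named after them.
CLDN14 gained in KO, chr21:36488033-36488232: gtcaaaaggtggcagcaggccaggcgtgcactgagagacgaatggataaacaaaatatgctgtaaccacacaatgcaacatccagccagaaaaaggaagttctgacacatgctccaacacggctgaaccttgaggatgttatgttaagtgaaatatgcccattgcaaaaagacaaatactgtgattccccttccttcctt
CLDN2 lost in KO, chrX:106927141-106927340: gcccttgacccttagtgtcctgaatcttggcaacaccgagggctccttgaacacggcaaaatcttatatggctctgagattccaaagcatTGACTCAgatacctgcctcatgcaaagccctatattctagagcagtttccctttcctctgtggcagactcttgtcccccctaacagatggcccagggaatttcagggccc
CLDN16 lost in KO, chr3:190397937-190398136: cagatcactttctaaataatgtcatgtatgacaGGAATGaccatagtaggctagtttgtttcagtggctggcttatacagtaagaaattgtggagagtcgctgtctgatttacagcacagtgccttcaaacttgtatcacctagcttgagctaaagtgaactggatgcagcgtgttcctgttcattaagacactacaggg
CLDN11 lost in rescue, chr3:170448541-170448740: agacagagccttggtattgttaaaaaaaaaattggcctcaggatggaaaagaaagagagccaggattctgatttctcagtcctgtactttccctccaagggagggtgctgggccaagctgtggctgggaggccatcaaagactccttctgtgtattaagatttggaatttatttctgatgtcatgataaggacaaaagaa

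The motifs searched on both strands were TGANTCA (AP-1), GGAATG (TEAD), CAAAGTCCA (HNF4), AACCGGTT (GRHL) and ATGCAAAT (octamer). The CLDN2 window held the AP-1 letters once, which 30.1% of all regions hold in a window of that length. The CLDN16 window held the TEAD letters once, found in 15.8% of all regions. They lie in the part of the window that runs past the region's edge, so the lost region itself does not hold them. The CLDN14 and CLDN11 windows held none of these. The shares for the letters that were not found were 0.274% (HNF4), 0.0451% (GRHL) and 1.39% (octamer), and a match is a description of letters, not a bound site.

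Loci were compared by the bases under peaks per library, tested with limma on log2(bases + 200) across the 18456 gene windows with a mean of at least 200 bases. Of the 10 claudin loci, 9 entered the test, and CLDN8 was listed at 0 bases in all 15 libraries. Between KO and WT, CLDN10 was higher and CLDN4 lower, and 7 loci did not pass an adjusted p of 0.05. This is 1 of 9 (11.1%) in each direction, which for so few loci is near the 15.1% of all tested windows that were higher and the 13.2% that were lower. Between rescue and KO, CLDN14 was higher and CLDN11 lower, again 1 of 9 in each direction, against 28.2% of windows higher and 6.82% lower. In KO against WT the 9 loci had a median log2 difference of 0.02, against -0.01 over all tested windows. In rescue against KO it was 0.04, against 0.09. When bases were divided by the library's total under peaks, the all-window median of KO against WT moved to -0.11, with 13.9% of windows higher and 40.4% lower, and rescue against KO gave 27.8% and 14.0%. With 150000 peaks per library, 11.8% were higher and 17.9% lower in KO. Under both of these settings CLDN4 stayed lower in KO, CLDN14 higher in rescue and CLDN11 lower in rescue, while CLDN10 kept its call only under the first. The scaling also called CLDN2 (-0.25), CLDN3 (-0.29) and CLDN16 (-0.24) lower in KO, to be read against that median, and CLDN1 (-0.14) lower in rescue. The 150000 peaks called CLDN3 (-0.29) and CLDN16 (-0.18) lower and CLDN7 (0.25) higher in KO, and CLDN1 (-0.30) lower in rescue.

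**Figure D1:**
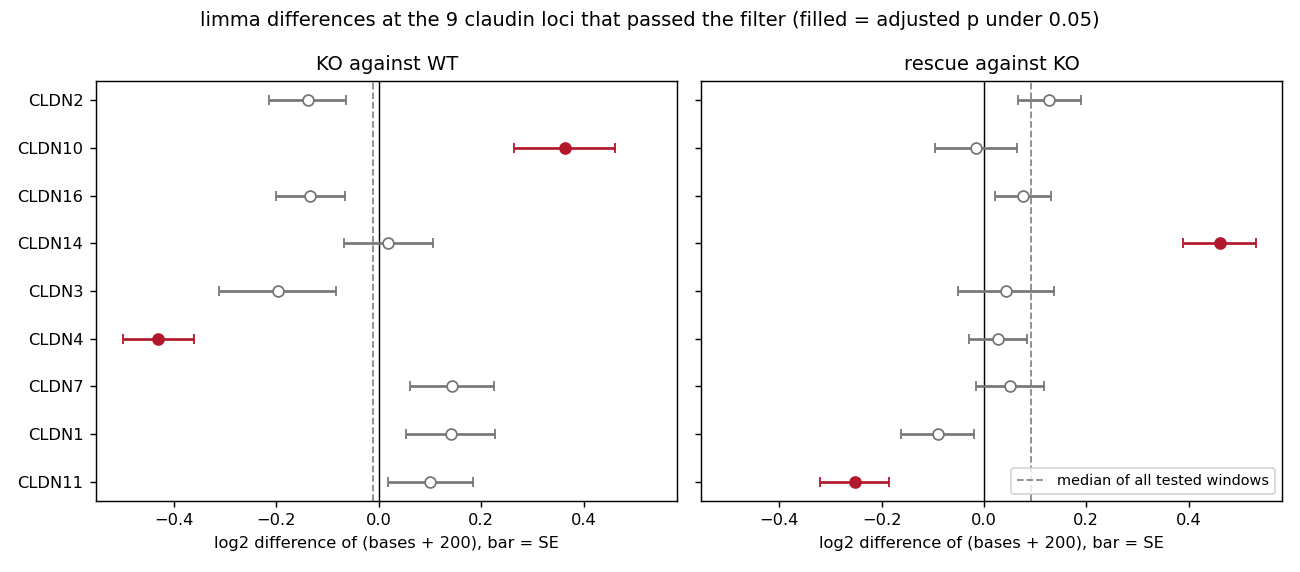
Log2 difference of bases under peaks (plus 200) at the 9 tested claudin loci, KO against WT on the left and rescue against KO on the right. Points are limma estimates with their SE, filled points have an adjusted p under 0.05, and the dashed line is the median of all 18456 windows. CLDN10 and CLDN4 stand apart on the left, and CLDN14 and CLDN11 on the right.

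CLDN2 (chrX:106900164-106930861, plus strand) forms a pore for cations and water and is characteristic of the leaky proximal tubule. Its locus held 3810, 3252 and 3383 bases in WT, 3055, 2877 and 2979 in KO1, 3286, 3147 and 3511 in KO2, 3502, 3104 and 3542 in Rescue1 and 3911, 3526 and 3144 in Rescue2. KO1 lay below every WT library, whereas KO2 and both rescue clones overlapped with WT. KO differed from WT by a log2 of -0.14 (SE 0.076, limma adjusted p = 0.187) and rescue from KO by 0.13 (SE 0.062, limma adjusted p = 0.115), so neither passed the test.

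Of the 12 CLDN2 regions, 6 had a peak in all 15 libraries, and all 12 lie within the gene body of MORC4, 11 of them in introns. No region lay within 1 kb of the MANE Select start of CLDN2 (chromosome X, 106920402). The region at the start of the alternative transcript CLDN2-202 (chrX:106917796-106918659) was open in all 15 libraries with 453 to 682 bases. The intronic region printed above (chrX:106927171-106927503) held 242, 91 and 88 bases in WT and none in KO1, KO2 or Rescue1. In Rescue2 it held 84 and 114 bases in 2 libraries and none in the other.

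CLDN10 (chr13:95433604-95579759, plus strand) is made as isoforms from alternative first exons, which differ in whether they pass anions or cations and in which part of the nephron they are found. The locus held 4668, 3687 and 3750 bases in WT, 5821, 4614 and 5462 in KO1, 5290, 4652 and 5591 in KO2, 5415, 5204 and 6165 in Rescue1 and 5349, 5116 and 3975 in Rescue2. All KO and rescue libraries exceeded WT replicates 2 and 3. The groups overlapped through WT replicate 1, which lay above 1 library of KO1, 1 of KO2 and Rescue2 replicate 3. KO exceeded WT by 0.36 on the log2 scale (1.29-fold for bases plus 200, SE 0.098, limma adjusted p = 0.00718), at similar size in KO1 (0.38) and KO2 (0.35). The exact permutation test on the bases gave p = 0.0714 (two-sided, smallest possible 0.0238). Rescue did not move the locus back, with a log2 difference from KO of -0.01 (SE 0.080, limma adjusted p = 0.906). The call rested on the WT libraries: leaving out WT replicate 2 gave adjusted p = 0.059 and leaving out WT replicate 3 gave 0.0521, and with 150000 peaks per library the difference was 0.14 (adjusted p = 0.304).

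None of the 31 CLDN10 regions was gained or lost between KO and WT or between rescue and KO, and 8 were open in all 15 libraries. The region at the MANE Select start (chr13:95552241-95553087) differed between clones of the same kind. It held 308 and 236 bases in 2 WT libraries and none in the third, 709, 523 and 664 in KO1, 116, 197 and 150 in KO2, 351, 396 and 456 in Rescue1, and none in any Rescue2 library. KO1 was highest and did not overlap with any other line. Upstream of the start of CLDN10-202, a region (chr13:95559229-95559410) was open in all 9 libraries of KO2, Rescue1 and Rescue2 (76 to 132 bases) and in none of WT and KO1. In an intron of the longest transcript, chr13:95481134-95481592 was open in every line but KO1, with 118 to 145 bases in WT, 159 to 173 in KO2 and 204 to 424 in rescue libraries. These regions were chosen after their values were seen and carry no test.

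**Figure D2:**
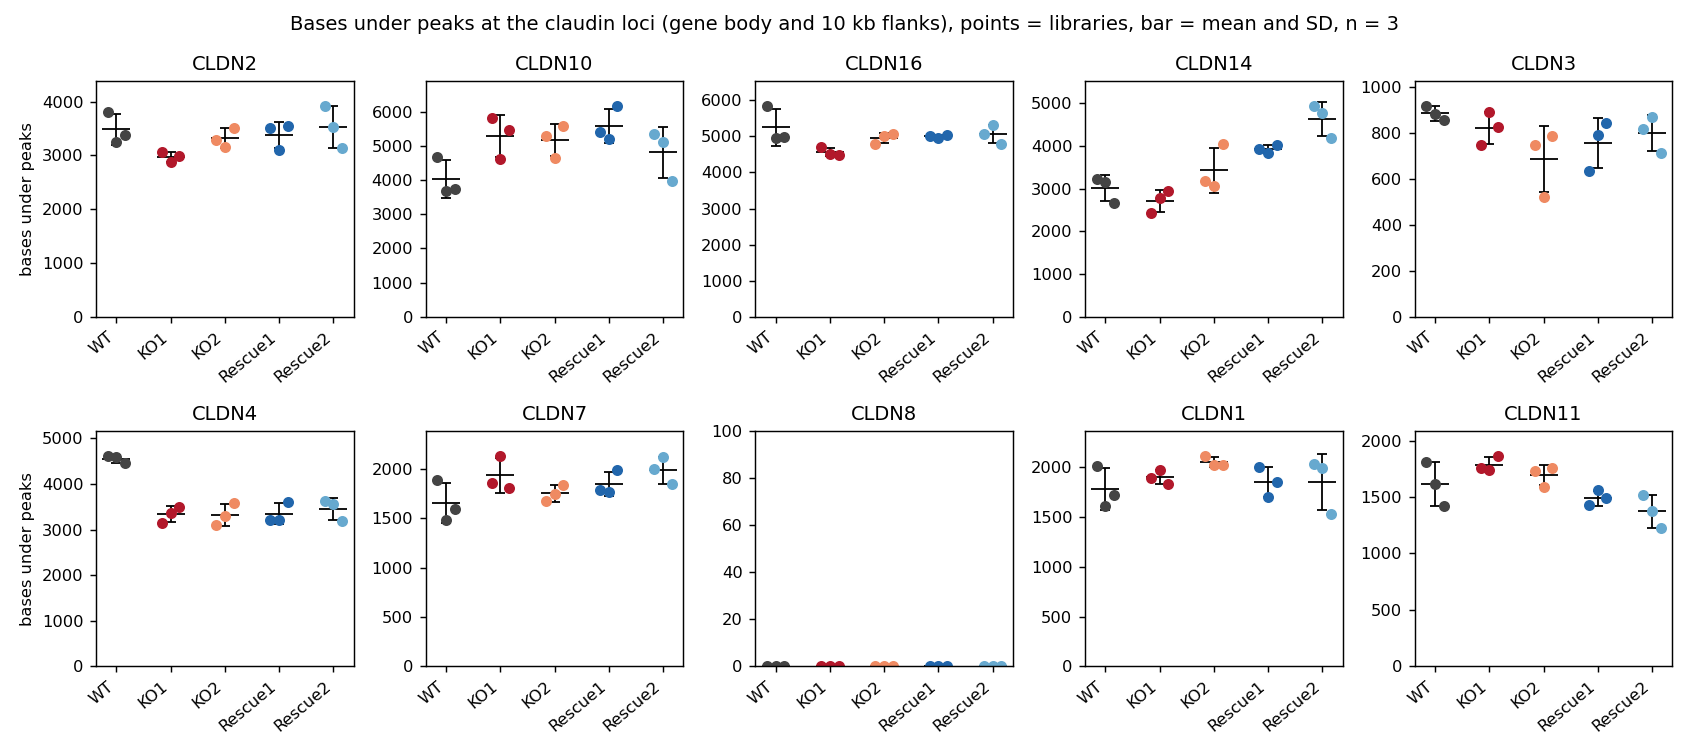
Bases under peaks at each of the 10 claudin loci by line, in bases, with 3 libraries per line as points and their mean and SD as bars, each panel starting at 0. WT lies above all other lines at CLDN4, rescue clones lie highest at CLDN14 and lowest at CLDN11, and CLDN8 is at 0 throughout.

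The summed bases at CLDN2 and CLDN10 were set against the sum at the other 8 loci in each library. The log2 ratio was -1.32 ± 0.0699 across the 3 WT libraries, -1.06 ± 0.110 across the 6 KO libraries and -1.11 ± 0.124 across the 6 rescue libraries (mean ± SD). WT libraries spanned -1.40 to -1.26 and KO libraries -1.22 to -0.90, without overlap, and rescue libraries spanned -1.30 to -0.96, overlapping with both. The ratio was higher in KO than in WT by 0.26 and lower in rescue than in KO by -0.05, the latter within 1 SD of the libraries. Both sums moved: the proximal tubule claudins went from 7517 ± 838 bases in WT to 8381 ± 622 in KO, and the other 8 from 18749 ± 1363 to 17481 ± 851. In KO, CLDN10 was called higher, whereas the CLDN2 estimate of -0.14 was below 0 without passing the test. Mean bases in KO minus WT were 1203 at CLDN10 and -339 at CLDN2. Among the other 8, CLDN4 was the only locus called, at -1223 bases. CLDN3 and CLDN16 also had lower means in KO, and CLDN1, CLDN7, CLDN11 and CLDN14 higher ones. The sums thus rest largely on CLDN10 and CLDN4, and bases shared by the CLDN1 and CLDN16 windows were counted in both. The ratio was built from listed members and was given no p-value. Among regions, 14 of 43 at the proximal tubule loci (32.6%) and 31 of 77 at the others (40.3%) were open in all 15 libraries, against 35.6% of all regions. Of the 43, 1 was lost in KO. Of the 77, 1 was gained and 2 were lost in KO, and 1 was lost in rescue, against 4.79%, 2.48% and 1.24% of all regions in that order.

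**Figure D3:**
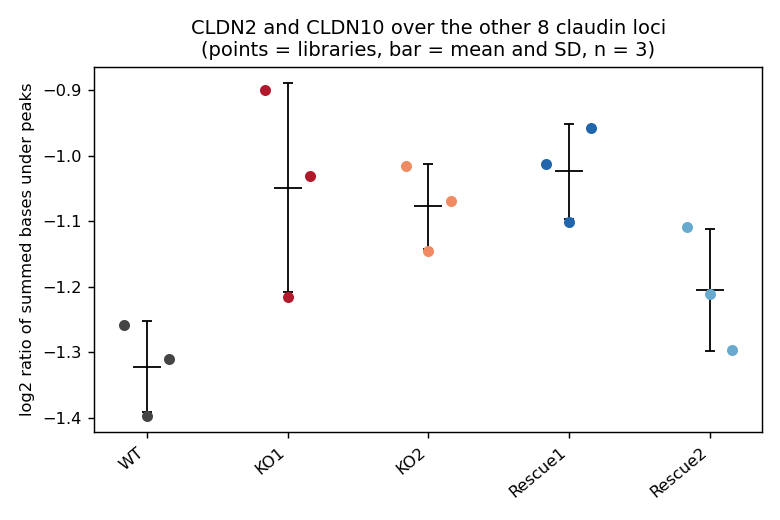
Log2 ratio of the bases under peaks at CLDN2 and CLDN10 to those at the other 8 claudin loci, with 3 libraries per line as points and mean and SD as bars. WT lies lowest with a mean of -1.32, and Rescue2 (-1.21) lies closest to it.

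CLDN16 (chr3:190322541-190412138, plus strand) is needed for paracellular reabsorption of magnesium and calcium in the thick ascending limb. Its locus held 5835, 4947 and 4975 bases in WT, 4473 to 5078 in KO and 4803 to 5304 in rescue libraries. The groups overlapped, and neither KO against WT (log2 -0.13, SE 0.067, limma adjusted p = 0.147) nor rescue against KO (0.08, SE 0.054, limma adjusted p = 0.285) passed the test. Regions in all 15 libraries made up 12 of its 22, the highest share of the claudin loci. An intronic region (chr3:190398006-190398137, printed above) held 77, 110 and 124 bases in the WT libraries and none in the other 12. It was private to WT, as was a region of CLDN4, so 2 of 120 claudin regions (1.67%) were found in WT alone, against 1.03% of all regions. A region inside the annotated gene body but 9.4 kb before the MANE Select start (chr3:190378671-190378841) was open in the 3 KO1 libraries alone. The MANE Select start region (chr3:190387628-190388297) held 517 to 653 bases in WT libraries. It held 259 to 457 bases in KO and 359 to 530 in rescue libraries. KO lay below WT there without overlap, and rescue overlapped with both. This comparison was chosen after the values were seen and given no test. The CLDN16 window also takes in the start of CLDN1, with 19.99% of its bases. Without the regions there, the means were 4260, 3782.5 and 4023.5 bases in WT, KO and rescue.

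CLDN14 (chr21:36460621-36576569, minus strand) lowers the cation permeability of CLDN16-containing junctions in the thick ascending limb and is also required in the inner ear. The locus held 3216, 3146 and 2663 bases in WT, 2434, 2786 and 2941 in KO1, 3176, 3072 and 4039 in KO2, 3919, 3836 and 4023 in Rescue1 and 4929, 4776 and 4182 in Rescue2. Rescue libraries lay above all WT libraries and above all KO libraries but KO2 replicate 3, which had the longest KO list. Rescue exceeded KO by 0.46 on the log2 scale (1.38-fold for bases plus 200, SE 0.071, limma adjusted p = 2.39e-05, exact permutation p = 0.00866). The difference was 0.61 against KO1 alone (limma adjusted p = 9.18e-06) and 0.31 against KO2 alone (limma adjusted p = 0.0137). KO did not differ from WT by the test (0.02, SE 0.087, limma adjusted p = 0.909), and rescue thus moved away from both. KO1 lay below the WT mean and KO2 above it, but the log2 difference between the KO clones, 0.31 (SE 0.10, limma adjusted p = 0.123), did not pass.

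The KO gain lay in an intron of CLDN14 at chr21:36487988-36488245. It held no base under peaks in WT, 192, 151 and 141 in KO1, 134, 184 and 203 in KO2, 232, 224 and 237 in Rescue1 and 250, 234 and 201 in Rescue2. The WT libraries were thus separate from all 12 others, and re-expression of SETD2 did not remove the peak. It was the only gain among 120 claudin regions (0.833%), against 4.79% of all regions. Without WT replicate 1 there were 4 gains (3.33%, against 5.66% of all regions), and without WT replicate 3 or KO2 replicate 2 there were 2 (1.67%, against 5.27% and 5.21%). The losses in KO, 3 of 120 (2.5%), stood beside 2.48% of all regions.

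Rescue2 had further regions along the upstream introns of CLDN14. At chr21:36530036-36530512 it held 394, 451 and 311 bases, against 0 to 181 in the 12 other libraries, and chr21:36499073-36499264 was open in Rescue2 alone. Near the start of CLDN14-203, chr21:36542797-36543038 held 234, 199 and 84 bases in Rescue2, and a peak in 1 WT and 1 Rescue1 library. The start of CLDN14-205 (chr21:36466392-36466571) was open in Rescue1 alone, with 73, 180 and 104 bases. The number of CLDN14 regions with a peak was 7 to 9 per WT library, 7 to 10 in KO1, 10 to 13 in KO2, 11 to 15 in Rescue1 and 15 to 18 in Rescue2.

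At the starts, peak strength was ranked within each library as the percentile of fold enrichment, where the MANE Select start had a region open in all 15 libraries. CLDN1, CLDN3, CLDN14 and CLDN16 met this. The CLDN14 start region (chr21:36479910-36480503) ranked at percentiles 36.7, 24.04 and 14.2 in WT. It ranked at 87.0, 80.2 and 82.1 in KO1, 80.1, 86.2 and 83.8 in KO2, 66.4, 68.2 and 76.6 in Rescue1 and 78.5, 82.9 and 79.5 in Rescue2. WT lay far below every other library, with a mean ± SD of 24.99 ± 11.3 against 83.2 ± 2.97 over the 6 KO and 75.4 ± 6.61 over the 6 rescue libraries. The rise in KO was 58.2 percentile points (exact permutation p = 0.0238, the smallest possible, adjusted over all 12074 ranked starts 0.197). Rescue differed from KO by -7.88 points (exact permutation p = 0.0173, adjusted 0.0881), so neither difference passed after adjustment. In KO against WT no ranked start could pass, because 0.197 is the adjusted value of the smallest possible exact permutation p. The bases under the peak moved likewise, from 161 to 207 in WT to 416 to 580 in KO and 425 to 582 in rescue libraries.

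The 250 bases before this start are printed because the rank of its peak differed most among the claudin starts, a choice made after the values were seen. The sequence is from RefSeq (GRCh38.p14, minus strand), overlaps an exon of the antisense transcript LNCTSI, and the capitals mark the TEAD letters on the opposite strand, found in 11.9% of the 35116 RefSeq upstream windows of that length.
CLDN14 upstream, chr21:36480123-36480372: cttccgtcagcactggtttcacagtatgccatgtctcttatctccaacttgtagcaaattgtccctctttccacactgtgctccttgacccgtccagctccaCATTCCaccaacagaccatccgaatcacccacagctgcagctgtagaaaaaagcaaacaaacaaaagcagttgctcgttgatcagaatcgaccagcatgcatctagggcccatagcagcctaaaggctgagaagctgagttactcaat

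**Figure D4:**
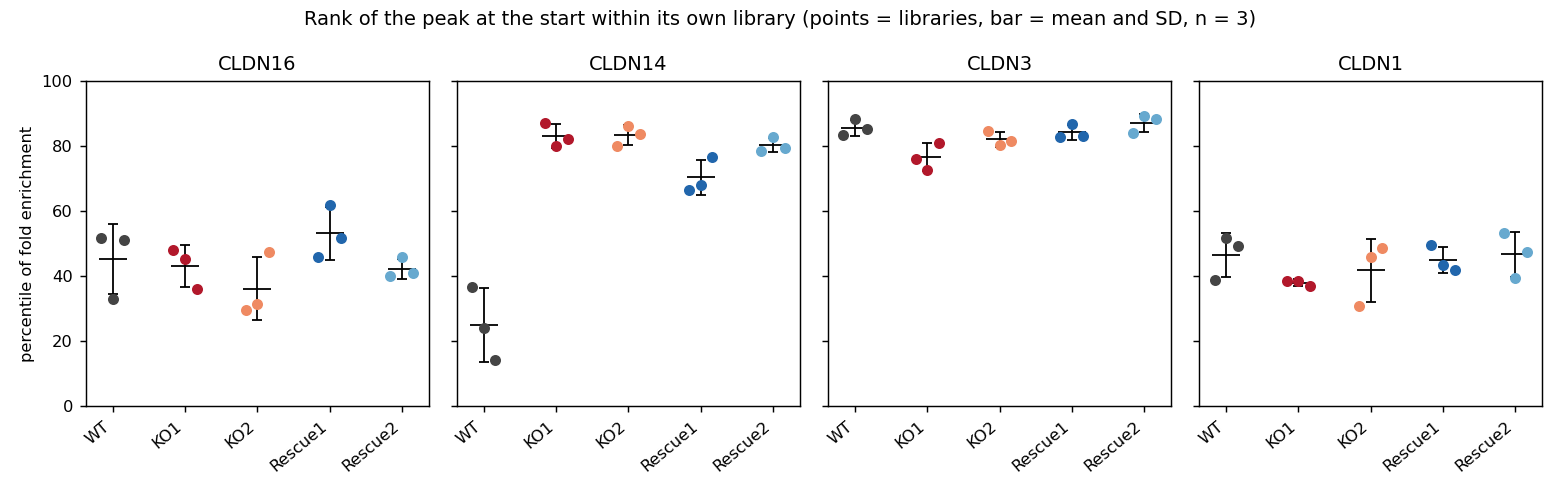
Percentile of fold enrichment of the peak at the MANE Select start, within the list of each library, for the 4 claudins with a peak there in all 15 libraries. Points are libraries, 3 per line, with mean and SD. WT lies at 14.2 to 36.7 for CLDN14 and all other lines at 66.4 to 87.0, and the lines overlap for CLDN1 and CLDN16.

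CLDN3 (chr7:73768997-73770270, minus strand) and CLDN4 (chr7:73799542-73832690, plus strand) are sealing claudins of tight epithelia and receptors of Clostridium perfringens enterotoxin, and their genes are neighbours on chromosome 7. The CLDN3 locus was small, with 854 to 915 bases in WT, 520 to 890 in KO and 633 to 867 in rescue libraries, and neither difference passed the test. Its start region ranked at 85.7 ± 2.43 in WT, 79.3 ± 4.30 in KO and 85.7 ± 2.79 in rescue libraries. KO differed from WT by -6.32 points (exact permutation p = 0.0476, adjusted 0.265) and rescue from KO by 6.34 (exact permutation p = 0.0108, adjusted 0.0677). Before adjustment, 1 of 4 claudin starts was thus higher and 1 lower in KO, and 1 higher and 1 lower in rescue. Over all ranked starts, 10.4% were higher and 7.55% lower in KO, and 6.50% were higher and 24.1% lower in rescue against KO.

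CLDN4 separated WT from every other line. The locus held 4612, 4593 and 4452 bases in WT, 3151, 3355 and 3495 in KO1, 3106, 3292 and 3575 in KO2, 3215, 3205 and 3613 in Rescue1 and 3618, 3562 and 3181 in Rescue2. All WT libraries lay above all 12 others, which overlapped among themselves. The log2 difference of KO from WT was -0.43 (0.742-fold for bases plus 200, SE 0.070, limma adjusted p = 4.32e-05), with an exact permutation p of 0.0238, the smallest possible. Rescue did not differ from KO by the test (0.03, SE 0.057, limma adjusted p = 0.742).

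The difference lay around the last part of CLDN4. The region at the MANE Select start (chr7:73830723-73831528) held 668, 720 and 652 bases in WT, 150, 201 and 152 in KO2, and none in KO1, Rescue1 and Rescue2. An exonic region after it (chr7:73832274-73832482) held 134, 198 and 112 bases in WT and none in the 12 other libraries. In WT the start region ranked at percentiles 20.6 to 28.6 of fold enrichment. The exonic region ranked at 0.929 to 1.97, among the weakest peaks of each list. Just beyond the gene, chr7:73833298-73833890 held 408 to 494 bases in WT and 0 to 187 in the others. The region at the alternative starts of CLDN4-202 and CLDN4-203 (chr7:73827606-73828523) was open in all 15 libraries, with 847 to 882 bases in WT and 629 to 854 in KO. Its rank went the other way, at percentiles 29.8 to 46.1 in WT, 76.5 to 89.4 in KO and 77.2 to 85.0 in rescue libraries, a comparison chosen after the values were seen and given no test. The window also takes in the start of METTL27, with 12.9% of its bases, and without that region the means were 4149, 2877 and 2888 bases in WT, KO and rescue.

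CLDN7 (chr17:7259903-7263983, minus strand), a claudin of the collecting duct and of many epithelia, had 1483 to 1882 bases in WT, 1670 to 2130 in KO and 1762 to 2115 in rescue libraries, overlapping and without a call. Of these, 68.5% lay at the starts of its neighbours CTDNEP1 and ELP5. Without them, the remaining bases averaged 356 in WT, 611 in KO and 656 in rescue libraries. For KO against WT the exact permutation p was 0.0238, the smallest possible, and for rescue against KO it was 0.134. This comparison was added after seeing the data, and no share over all windows was computed for it. The same step for KO against WT gave exact permutation p = 0.0238 at CLDN4 and 0.143 at CLDN16. The remaining CLDN7 bases took in an upstream region (chr17:7266185-7266456) with 98 bases in 1 WT library, none in 2, and 185 to 249 bases in all 12 others. CLDN8 (chr21:30214006-30216097, minus strand), which pairs with CLDN4 in the collecting duct, had no peak, as given above.

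CLDN1 (chr3:190305707-190322446, minus strand) held 1609 to 2013 bases in WT, 1837 to 2115 in KO and 1530 to 2031 in rescue libraries, and CLDN1 passed no test. Its start region was open in all 15 libraries at percentiles 30.8 to 53.3, where KO did not differ from WT (exact permutation p = 0.119) nor rescue from KO (exact permutation p = 0.113) by the test. In an exon near its 3′ end, a region (chr3:190306520-190307111) held 0, 0 and 78 bases in WT, 347 to 490 in KO and 0 to 237 in rescue libraries, without overlap of KO with either. This region was chosen after its values were seen.

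CLDN11 (chr3:170418868-170454733, plus strand) held 1813, 1613 and 1423 bases in WT, 1757, 1742 and 1863 in KO1, 1733, 1591 and 1761 in KO2, 1425, 1558 and 1487 in Rescue1 and 1517, 1375 and 1228 in Rescue2. Every rescue library lay below every KO library, and WT overlapped with both. The log2 difference of rescue from KO was -0.25 (0.839-fold for bases plus 200, SE 0.068, limma adjusted p = 0.00562, exact permutation p = 0.00216, the smallest possible). With flanks of 25 kb in place of 10 kb the difference was -0.05 (adjusted p = 0.559), and against KO2 alone -0.22 (adjusted p = 0.0634). The intronic region lost in rescue (chr3:170448541-170448770) held 145, 91 and 0 bases in WT, 159, 223 and 224 in KO1, 108, 130 and 158 in KO2, and none in any rescue library. It was the only such loss among 120 claudin regions (0.833%, against 1.24% of all regions), and no claudin region was gained in rescue (against 0.91%). It overlaps an exon of the non-coding gene SLC7A14-AS1.

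No claudin locus passed the limma test between KO2 and KO1, where 3.02% of all windows did, or between Rescue2 and Rescue1, where 3.40% did. Regions open in all 3 libraries of a single line and in no other numbered 2 in KO1 (1.67%, against 0.576% of all regions), 0 in KO2 (0.296%), 2 in Rescue1 (1.67%, against 0.199%) and 1 in Rescue2 (0.833%, against 0.447%).

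**Figure D5:**
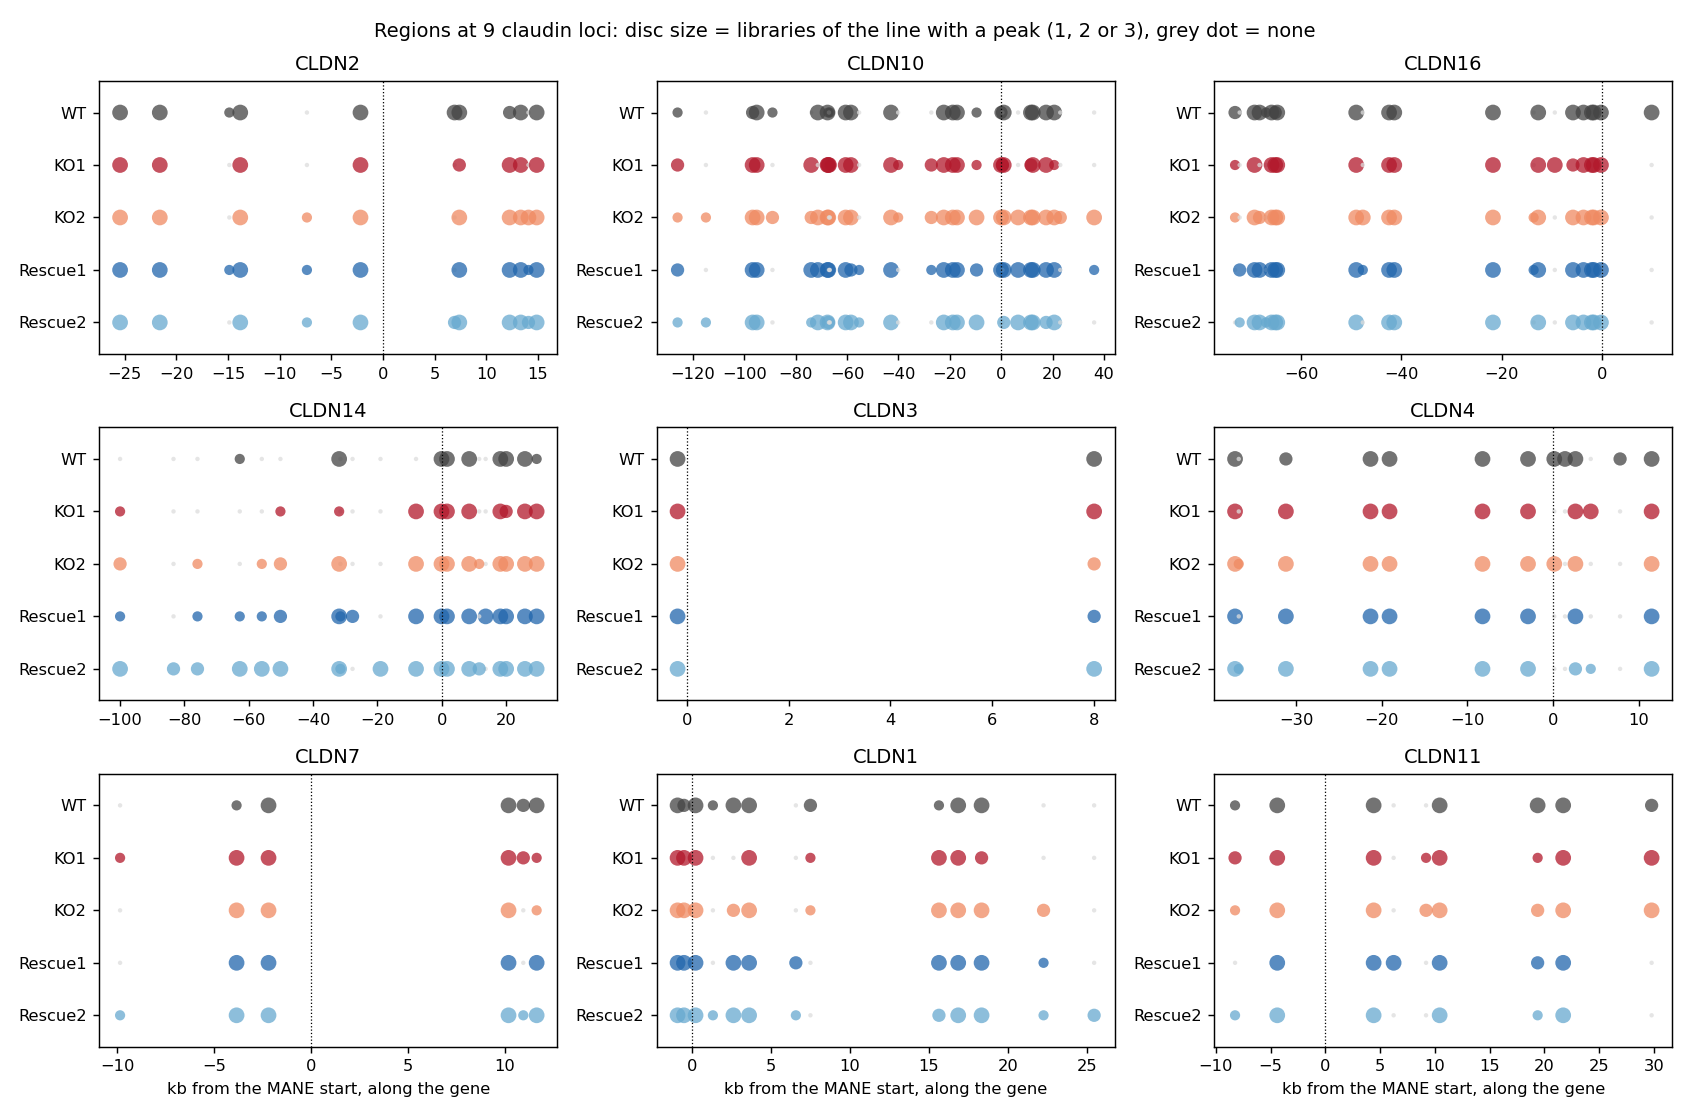
Regions of the 9 claudin loci with any peak, by distance in kb from the MANE Select start along the direction of the gene. Each row is a line, disc size gives the number of its 3 libraries with a peak and a small grey dot stands for none. The regions absent from WT upstream of CLDN14 and those at and after the CLDN4 start found in WT are visible as gaps in the rows.

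Other genes of the tight junction were counted as a list of 30, comprising other claudins, occludin and its relatives, JAM adhesion proteins, ZO scaffolds, cingulins and polarity proteins, of which 26 passed the filter. In KO against WT, 3 of 26 (11.5%) were higher, against 15.1% of all windows, 8 (30.8%) were lower, against 13.2%, and 15 did not pass. In rescue against KO, 9 of 26 (34.6%) were higher, near the 28.2% of all windows, none was lower, against 6.82%, and 17 did not pass. Their median log2 differences were -0.13 and 0.13, against -0.01 and 0.09 over all windows. With bases divided by the library total, 2 of 26 were higher and 18 lower in KO, where 13.9% of all windows were higher and 40.4% lower, and 9 were higher and 2 lower in rescue, where 27.8% and 14.0% were. JAM3, a junctional adhesion protein, held 1946 to 2071 bases in WT, was listed at 0 in all 6 KO libraries and held 408 to 855 in rescue libraries. The tetraspan protein MARVELD3 held 279 to 505 bases in WT, 76 to 164 in KO and 208 to 526 in rescue libraries, and CGN, the scaffold cingulin, held 3867 to 4609, 2891 to 3228 and 3501 to 3854. CLDN18, CLDN19 and TJP3 were also called lower in KO and higher in rescue (limma adjusted p of 0.00102, 0.00412 and 0.00143, then 4.83e-05, 4.26e-05 and 0.00212). CLDN5, the endothelial claudin, was called higher in KO and again higher in rescue, with 0 to 78 bases in WT, 297 to 540 in KO and 681 to 808 in rescue libraries. JAM2 was called higher in KO, with 1087 to 1575 bases in WT and 1747 to 2250 in KO. The windows of 2 of the genes called lower in KO overlap each other. These comparisons share the KO libraries, so a low KO value enters both.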

How the data were processed

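ATAC-seq was measured in 15 libraries. The authors aligned reads with BWA to hg38 and called peaks library by library with MACS2 2.2.7.1, and per the labels' processing notes DiffBind 2.14.0 followed. The deposited lists give intervals, a score, the fold enrichment as a ratio, and −log10 p and −log10 q values. Filters on duplicates were not given in the sources used here. The fold enrichment is relative to the library's own background, so it was only ranked within a library. Read counts and read depth were not used here.

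Bases under peaks were summed per gene window (GENCODE v44, protein-coding) and tested with limma 3.58.1 in R 4.3.3 (trend and robust, 5 group means, Benjamini-Hochberg over 18456 windows). Exact permutation tests over libraries were two-sided by doubling the smaller tail (84 splits for KO against WT, 924 for rescue against KO). Both procedures were tested on simulated data, which for limma had independent noise per window and library and no difference between clones. Named were the 10 claudins, their called regions and start regions, and up to 8 other tight junction genes by smallest adjusted p. One marker gene and one motif are not reported here. Members and lists were chosen with earlier results of these data known. Alternatives varied peak stringency, list length, flanks, pseudocount, filter, scaling, clones and libraries.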

Additional observations from a re-analysis of the deposited data

How the results depend on the processing

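The number of claudin loci called higher in KO (1) was 0 with peaks of −log10 q of at least 5 and by the unadjusted exact permutation test, and 2 for gene bodies without flanks; leaving out 1 library gave 0 to 1 (0 without WT replicate 2 or 3). Loci lower in KO (1) numbered 3 with 150000 peaks per library and 4 after scaling by total bases; leaving out 1 library gave 1 to 1. Loci higher in rescue (1) numbered 2 without flanks and against KO1 alone, with 1 to 2 when 1 library was left out (2 without Rescue2 replicate 3). Loci lower in rescue (1) numbered 2 with 150000 peaks, without flanks and after scaling, 0 with 25 kb flanks and against KO2 alone, and 1 to 1 when 1 library was left out. Among all tested windows, 13.1% were higher in KO with the stricter peaks and 15.8% without flanks. Lower in KO were 17.9% with 150000 peaks and 40.4% after scaling. Higher in rescue were 22.6% without flanks, 23.9% against KO1 alone and 39.2% without Rescue2 replicate 3. Lower in rescue were 7.58% with 150000 peaks, 7.29% without flanks, 14.0% after scaling, 7.06% with 25 kb flanks and 5.29% against KO2 alone.

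Regions gained in KO (1) numbered 3 with the stricter peaks, 3 with 150000 peaks, 6 when at least 50% of the region had to be under peaks, 8 by the majority rule, 5 with either KO clone alone, 2 with 25 kb flanks and 1 to 4 when 1 library was left out (4 without WT replicate 1, 2 without WT replicate 3 or KO2 replicate 2). Regions lost in KO (3) numbered 0, 1, 8 and 6 with the stricter peaks, 150000 peaks, the majority rule and KO1 alone, and 3 to 4 when 1 library was left out. Regions gained in rescue (0) numbered 4 by the majority rule and 3 against KO1 alone, with 0 to 0 when 1 library was left out. Regions lost in rescue (1) numbered 0 with 150000 peaks, 2 by the majority rule, 3 against KO1 alone and 2 against KO2 alone, with 1 to 1 when 1 library was left out. Start regions with a changed rank numbered 2 in each comparison. In KO against WT they numbered 1 with 150000 peaks, where CLDN14 had no peak in every library, 0 with either clone alone, where an exact permutation test of 3 libraries against 3 cannot go below p = 0.1, and 0 to 2 when 1 library was left out (0 without any WT library, where the smallest exact permutation p is 0.0714, and 1 without any KO library but KO2 replicate 1). In rescue against KO they numbered 1 against KO2 alone, and 2 to 3 when 1 library was left out. Under these alternatives the share of all regions or ranked starts was computed only for gains without 1 library (4.89% to 5.66%). The counts of claudin regions and starts therefore do not show whether the claudins moved more than others.

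The log2 ratio of proximal tubule to other claudins, 0.26 higher in KO, was 0.157 as a mean over loci, 0.128 with 150000 peaks, 0.378 without flanks and 0.222 to 0.291 when 1 library was left out. The rescue difference of -0.05 turned to 0.0167 as a mean over loci, 0.00324 with the stricter peaks and 0.0362 with 150000 peaks, and was -0.0831 to -0.0154 when 1 library was left out. The cause of these changes was not tested.

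With a replicate block the counts of loci stayed at 1 in each direction of each comparison. The shared replicate numbers did not pair the libraries: the correlation of deviations of same-numbered libraries was -0.163 to 0.0441 over 30 pairs, with 0 pairs over 0.1. Without both of the longest lists (KO2 replicate 3 and Rescue2 replicate 1, added after seeing the data) the counts of loci were also 1 each. Peak lists hold no counts and depth was not used, so whether depth limits a missing peak was not tested, and few regions and 3 WT libraries limit the precision.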
